A study of Oryza sativa with 2 samples.

Results

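The light-harvesting proteins of photosystem I form the antenna of this complex, and the 6 genes described here, Lhca1 to Lhca6, were chosen by their locus identifiers from the 38511 loci listed for rice seedlings. All 6 were listed in both libraries, above 0 in each. The files pair no names with identifiers, and the supplied RefSeq table (assembly ASM3414082v1) matched 0 of the 6 identifiers. The gene names therefore rest on the identifiers by which the genes were chosen, and no annotation was at hand to check them. No sequence of these genes was used here for the same reason.

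The data were 2 RNA-seq libraries of polyadenylated RNA from whole wild-type plants of Nipponbare, a japonica rice cultivar, at an age of 3 weeks. The plants grew in Yoshida nutrient solution in a chamber with 10 h of light, at 800 μmol m-2 s-1, and 14 h of dark. The libraries form 1 group and belong to a study relating adenine methylation of rice DNA to expression, and here no treatment or genotype was compared. The labels do not say whether they came from separate plants or pools, so part of the spread between them may be technical.

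Photosystem I sits in the thylakoid membrane of the chloroplast and uses light energy to move electrons from plastocyanin to ferredoxin. Its antenna is a belt of chlorophyll-binding proteins on 1 side of the core, which passes the energy of absorbed light to the reaction centre. In the plant complexes whose structures are known, Lhca1 pairs with Lhca4 and Lhca2 pairs with Lhca3, and each of these main proteins is present as a single copy. In Arabidopsis, Lhca5 and Lhca6 are scarce relatives that attach photosystem I to the chloroplast NADH dehydrogenase-like complex. The proteins are encoded in the nucleus and imported into the chloroplast, so their messages are polyadenylated and are caught by libraries of this kind.

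The antenna genes fell into a group of 4 with very high levels, Lhca1 to Lhca4, and a pair with far lower levels, Lhca5 and Lhca6. Levels are in FPKM, fragments per kilobase of transcript per 1000000 fragments, a unit that is divided by length and so allows different genes to be compared. A mean of 1000 FPKM or more was reached by 4 of the 6 genes, against 0.156% of all listed loci. A mean of at least 1 FPKM, the threshold used here for an expressed locus, was reached by all 6 genes and by 49.8% of the listed loci.

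Lhca1 (LOC_Os06g21590), the partner of Lhca4 in the antenna belt, had 3927 FPKM in library 1 against 3478 FPKM in library 2. Its mean of 3702 ± 317 FPKM (SD, n = 2 libraries here and below) ranked 11th of all loci. Lhca4 (LOC_Os08g33820), which in Arabidopsis carries the chlorophylls that absorb furthest into the red, had 1480 FPKM in library 1 against 1382 FPKM in library 2. Lhca4 was the lowest of the 4 abundant genes in both libraries, with a mean of 1431 ± 68.9 FPKM and rank 45. Within a library, the Lhca1 level was 2.65 times that of Lhca4 in library 1 and 2.52 times in library 2, a mean ratio of 2.58 ± 0.097. The values of this pair did not overlap between the genes, and the gap between their means, 2271 FPKM, was larger than the sum of their SDs, 386 FPKM.

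Lhca3 (LOC_Os02g10390), the partner of Lhca2, was the highest of the 6 genes. It had 4208 FPKM in library 1 against 3799 FPKM in library 2, a mean of 4004 ± 289 FPKM and rank 10. Lhca2 (LOC_Os07g38960) had 2440 FPKM in library 1 against 2359 FPKM in library 2, with a mean of 2400 ± 57.2 FPKM and rank 22. On the deposited values Lhca2 had the smallest SD of the 6 genes relative to its mean, 2.38%. Relative to the other antenna genes it was not the steadiest, as its share of the antenna sum shifted most in percentage points (below). In proportion, the small shares of Lhca5 (0.148% in library 1, 0.211% in library 2) and Lhca6 (0.653% and 0.531%) shifted more. Lhca3 stood at 1.72 times the level of Lhca2 in library 1 and 1.61 times in library 2, a mean ratio of 1.67 ± 0.081. The levels of these partners were thus also unequal by more than the spread between libraries, by a smaller factor than for Lhca1 and Lhca4 in each library.

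Lhca6 (LOC_Os09g26810), one of the scarce relatives, had 79.4 FPKM in library 1 against 58.9 FPKM in library 2, a mean of 69.2 ± 14.5 FPKM and rank 1559. Lhca5 (LOC_Os02g52650), the other, had 18.0 FPKM in library 1 against 23.5 FPKM in library 2, a mean of 20.7 ± 3.9 FPKM and rank 5505. Lhca5 was the lowest of the 6 genes in both libraries. It stood at or above 85.7% of the listed loci, of which only 49.8% were expressed. Lhca6 was higher than Lhca5 in both libraries, by 4.42 times in library 1 and 2.51 times in library 2. That ratio moved more between the libraries than the ratios within the abundant pairs, as Lhca6 was higher in library 1 and Lhca5 was higher in library 2.

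**Figure D1:**
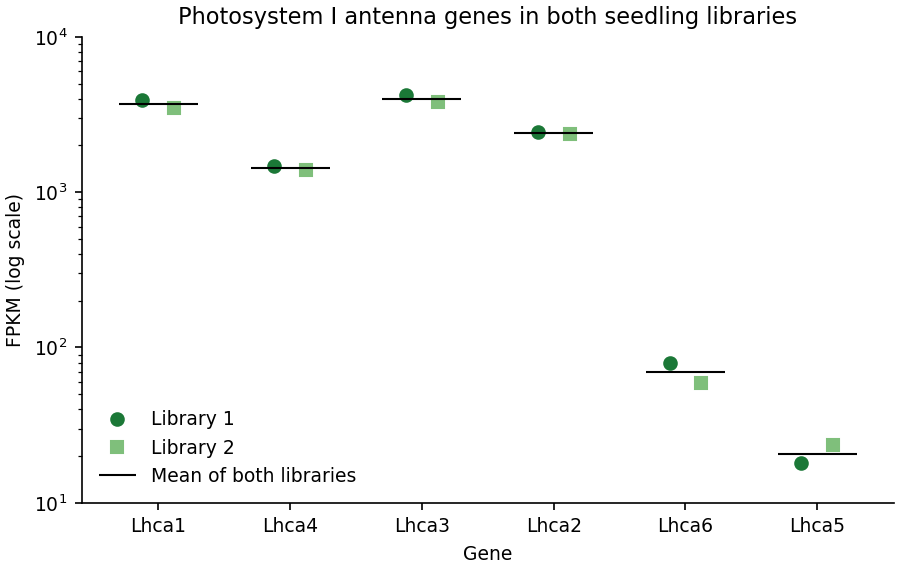
FPKM (vertical axis, log scale) of the 6 photosystem I antenna genes (horizontal axis) in library 1 (circles) and library 2 (squares), with a line at the mean of both. Lhca1 to Lhca4 lie between 1382 and 4208 FPKM, while Lhca6 and Lhca5 lie between 18.0 and 79.4 FPKM.

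From high to low, the order of the mean levels was Lhca3, Lhca1, Lhca2, Lhca4, Lhca6 and Lhca5, and this order was the same in each library taken alone. Lhca3 stood above Lhca1 within each library, at 1.07 times its level in library 1 and 1.09 times in library 2 (1.08 ± 0.015). Across libraries their values overlapped, and their means were 301 FPKM apart while their SDs summed to 606 FPKM. Both genes were higher in library 1, and these SDs include that shared shift. Every other pair of neighbours in the order was apart by more than the sum of its SDs, with no overlap of library values. The widest step was between Lhca4 and Lhca6, where Lhca4 was 18.6 times higher in library 1 and 23.5 times higher in library 2. With n = 2 an SD is itself imprecise, and the order was not tested.

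The 6 genes summed to 12152 FPKM in library 1 against 11101 FPKM in library 2, or 1.81% and 1.70% of the summed FPKM of those libraries (1.76% ± 0.078). Bulk RNA was measured, so in this and the other levels, fewer cells of a type and less RNA per cell cannot be told apart. Within the antenna sum, Lhca3 gave 34.6% in library 1 and 34.2% in library 2, and Lhca1 gave 32.3% and 31.3%. Lhca2 gave 20.1% in library 1 and 21.3% in library 2, and Lhca4 gave 12.2% and 12.5%. Lhca5 and Lhca6 together gave 0.801% of the antenna sum in library 1 and 0.742% in library 2. The make-up of the abundant antenna messages was therefore close to the same in both libraries, with the largest shift of a share, that of Lhca2, at 1.17 percentage points.

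The antenna genes were set beside a list of 9 loci for nuclear-encoded core subunits of photosystem I and a list of 8 loci for the antenna of photosystem II. The core subunits bind the antenna and dock plastocyanin and ferredoxin. The photosystem II antenna proteins are members of the same chlorophyll-binding family. These lists were compiled from general knowledge of rice locus identifiers, which the files do not annotate, so their loci are given by identifier and only the list is named. All 9 core loci and 7 of the 8 photosystem II antenna loci were used, and the remaining 1 was not analysed here.

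The 4 abundant antenna genes had a wider range of levels than the core list and lay mostly above its middle. The medians were 3184 FPKM for the 4 genes and 1753 FPKM for the core list in library 1, and 2919 and 1623 FPKM in library 2. The ratio of the medians was 1.82 in library 1 and 1.80 in library 2 (1.81 ± 0.012). The highest over the lowest level was 2.84-fold among the 4 genes and 1.98-fold among the 9 core loci in library 1, and 2.75-fold and 2.17-fold in library 2. All 6 antenna genes together had a median of the means of 1915 FPKM, against 1701 FPKM for the core list and 9.91 FPKM for all expressed loci.

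Each antenna gene had its own place among the core loci. Lhca3 and Lhca1 stood above all 9 core loci in both libraries, with no overlap. Lhca2 stood above 8 of them and below 1, LOC_Os09g30340, the highest of the core list at 2738 ± 96.1 FPKM. Lhca4 stood below 7 of the 9 and overlapped the other 2, LOC_Os04g33830 at 1412 ± 2.97 FPKM and LOC_Os07g25430, the lowest of the list, at 1330 ± 139 FPKM. Lhca5 and Lhca6 stood below all 9. Lhca4 was thus the abundant antenna gene whose level was nearest to the lower end of the core list.

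The photosystem II antenna loci were higher still by their median. It was 1.44 times the median of the 4 abundant photosystem I antenna genes in library 1 and 1.35 times in library 2 (1.39 ± 0.070). Their sum was 2.88 times the sum of the 6 photosystem I antenna genes in library 1 and 2.55 times in library 2 (2.72 ± 0.23). The sums differ more in part because 7 loci are set against 6 genes, of which Lhca5 and Lhca6 add little. A sum also counts the highest loci in full, whereas a median does not. Their means ran from 2579 ± 653 FPKM (LOC_Os01g52240) to 9240 ± 1766 FPKM (LOC_Os01g41710), with a median of 4282 FPKM. Lhca3 and Lhca1 stood below 3 of the 7 loci, above 3 and overlapped 1, whereas Lhca4 stood below all 7 in both libraries. Lhca2 stood below 4 and overlapped the other 3.

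**Figure D2:**
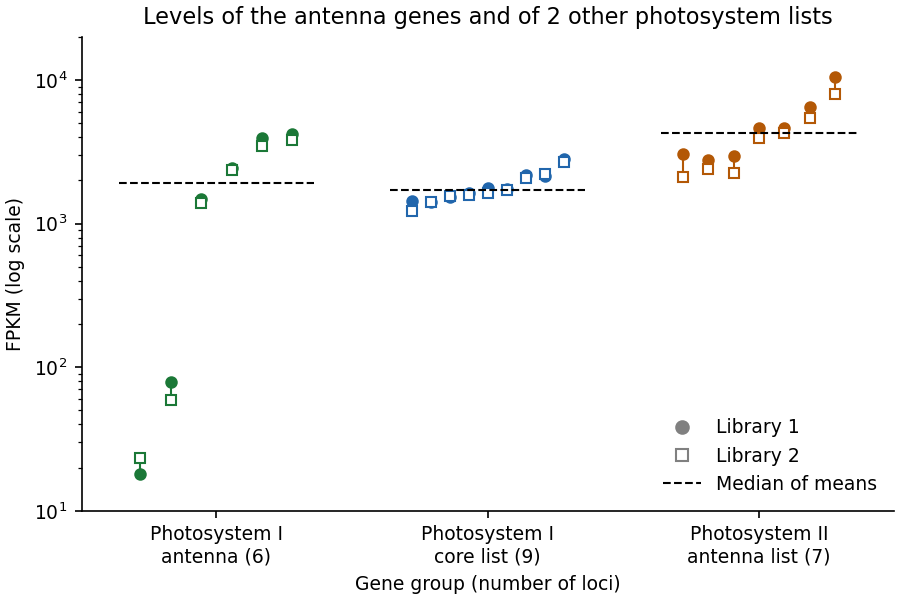
FPKM (vertical axis, log scale) of each locus of the photosystem I antenna, the photosystem I core list and the photosystem II antenna list (horizontal axis), with library 1 as filled circles, library 2 as open squares, a line joining them and a dashed line at the median of the means. The 9 core loci lie within 1232 to 2806 FPKM, while the antenna genes include values above and far below that band.

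Lhca1 to Lhca4 differed little between the libraries, while Lhca5 and Lhca6 differed more (below). Ratios between libraries are given as log2 of (FPKM + 1) in library 1 over that in library 2, a scale that understates changes at low levels, and with 1 library on each side they carry no test. None of the 6 genes was 2-fold apart, against 6.75% of all expressed loci, so that 0 of 6 is close to that background. Library 1 was higher for 5 of the 6 genes, against 47.1% of expressed loci, and for 72 of the 107 other loci with means from 500 FPKM up (67.3%).

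Among the abundant genes the log2 ratio was 0.18 for Lhca1, 0.15 for Lhca3, 0.098 for Lhca4 and 0.049 for Lhca2. The median of the 107 other loci at 500 FPKM or more was 0.12, so these 4 genes lay on both sides of the middle of loci with high levels. When ratios were centred on that median, Lhca2 and Lhca4 turned to -0.071 and -0.022, slightly higher in library 2. Lhca1 and Lhca3 stayed above 0, at 0.055 and 0.027, so Lhca2 then lay furthest from 0 of these 4 genes.

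The scarce genes differed more and in opposite directions. The log2 ratio was 0.42 for Lhca6, which was 1.35 times higher in library 1, and -0.37 for Lhca5, which was 1.30 times higher in library 2. The SD was 21.0% of the mean for Lhca6 and 18.7% for Lhca5, against 2.38% to 8.57% for the abundant genes. Loci with a mean within 2-fold of a gene's own gave a background for such values. Of the 2720 such loci for Lhca6, 72.9% had a smaller difference between the libraries, and of the 6545 for Lhca5, 72.7% had. Both differences were larger than that of the median locus at their level and under the 2-fold difference that 5.04% and 4.60% of those loci reached.

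**Figure D3:**
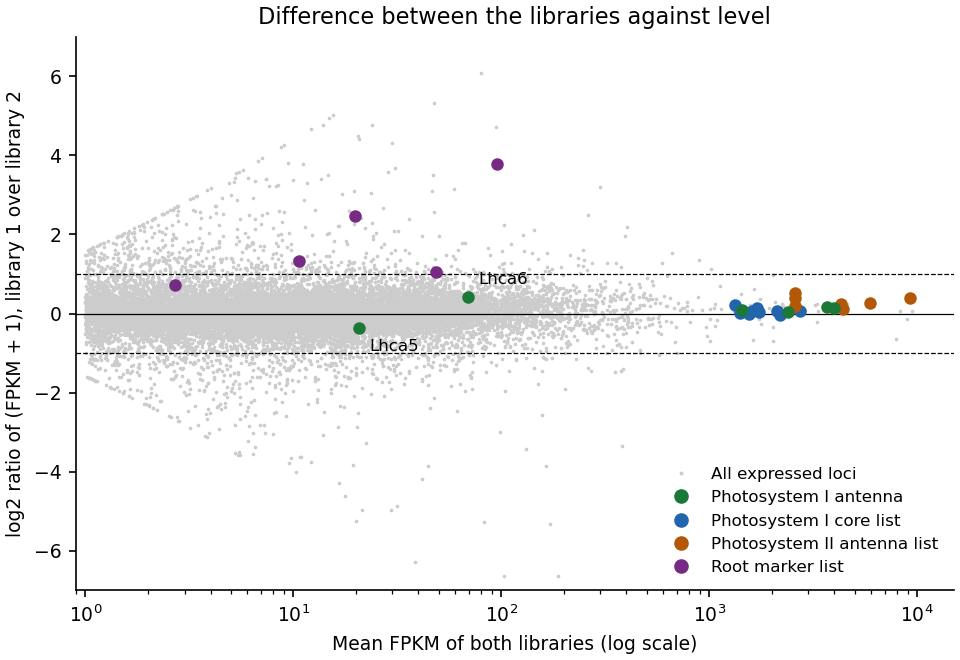
Log2 ratio of FPKM + 1 in library 1 over library 2 (vertical axis) against the mean FPKM (horizontal axis, log scale) for all 19187 expressed loci (grey) and 4 gene groups (colours), with dashed lines at 2-fold. The 6 antenna genes lie within 2-fold, Lhca6 at 0.42 and Lhca5 at -0.37, while 4 of the 5 root marker loci lie above the upper line on this scale.

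Other lists also moved between the libraries, and their part in the differences of the antenna genes was not tested. All 7 photosystem II antenna loci were higher in library 1, by a median log2 ratio of 0.25, against 0.12 for the 6 photosystem I antenna genes and 0.065 for the 9 core loci, 7 of which were higher in library 1. The lists that follow were compiled from identifiers in the same way and are likewise not annotated in the files. A list of 5 root marker loci, read to see whether the whole plants held root RNA, summed to 299 FPKM in library 1 against 56.3 FPKM in library 2. All 5 were over 2-fold higher in library 1 as ratios of FPKM, and 0 of them were listed at 0. With the pseudocount of 1, 4 of them were 2-fold higher, against 670 of the 19187 expressed loci. No such background was taken for ratios without the pseudocount. The highest, LOC_Os02g44310, had 179 FPKM in library 1 against 12.1 FPKM in library 2, and the lowest, LOC_Os07g12900, had 3.60 against 1.77 FPKM. Without LOC_Os02g44310 the other 4 summed to 119 FPKM in library 1 against 44.2 FPKM in library 2. A list of 4 leaf loci, for the Rubisco small subunit and its activase, summed to 16460 FPKM in library 1 against 19471 FPKM in library 2, with 2 loci higher in each. The leaf loci ran from LOC_Os12g19470, with 484 FPKM in library 1 against 529 FPKM in library 2, to LOC_Os12g19381, with 8425 against 8044 FPKM. The lower leaf sum in library 1 rested on LOC_Os12g17600, with 6171 against 9584 FPKM, and the other 3 summed to 10289 FPKM in library 1 against 9888 FPKM in library 2. As far as these lists mark root and leaf, both were detected in both libraries. The sum of the root list was 5.31 times higher in library 1, or 2.70 times without LOC_Os02g44310.

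Antenna genes are known to follow the time of day and, in several plants, the GLK transcription factors, and lists for both were read. Both GLK loci were higher in library 1, LOC_Os06g24070 with 90.3 FPKM against 65.9 FPKM in library 2 and LOC_Os01g13740 with 49.9 FPKM against 43.8 FPKM. All 7 loci of the clock list were lower in library 1, at log2 ratios of -0.54 to -0.027, as were 10143 of the 19187 expressed loci. Of the clock loci 0 were 2-fold apart, close to the background of 6.75% of expressed loci. The highest of these, LOC_Os01g08700, had 240 FPKM in library 1 against 299 FPKM in library 2, and the lowest, LOC_Os11g05930, had 23.7 and 27.3 FPKM. The hour of harvest is not given in the labels, and a link of these lists to the antenna levels was not tested.

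The 6 genes lie on 5 chromosomes, as read from their identifiers, which hold the chromosome number and a locus number that increases along it. Lhca3 and Lhca5 share chromosome 2, at locus numbers 10390 and 52650, and the others are on chromosomes 6, 7, 8 and 9. Of the 60 loci listed within 5 places of an antenna gene, 34 (56.7%) were expressed, against 49.8% of all listed loci. At 100 FPKM or more there were 0 of the 60, close to the background of 1021 among all 38511 listed loci. The 12 loci directly beside the antenna genes had a median level of 5.90 FPKM, against 0.979 FPKM for all listed loci, and a highest of 38.1 FPKM.

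The loci around Lhca1 to Lhca4 did not share the high levels of these genes, which few listed loci reached anywhere. The loci directly before and after Lhca3, LOC_Os02g10380 and LOC_Os02g10400, had means of 3.18 and 2.61 FPKM. Those beside Lhca1, LOC_Os06g21580 and LOC_Os06g21600, had 7.93 and 20.3 FPKM. Lhca2 lay between LOC_Os07g38940 at 9.59 FPKM and LOC_Os07g38970 at 38.1 FPKM, and Lhca4 between LOC_Os08g33810 at 2.47 FPKM and LOC_Os08g33830 at 25.7 FPKM. Around the scarce genes the steps were smaller. Lhca6 had LOC_Os09g26800 at 15.1 FPKM and LOC_Os09g26820 at 3.87 FPKM beside it. Lhca5 had LOC_Os02g52640 at 0.678 FPKM on 1 side and LOC_Os02g52660, listed at 0 in both libraries, on the other.

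**Figure D4:**
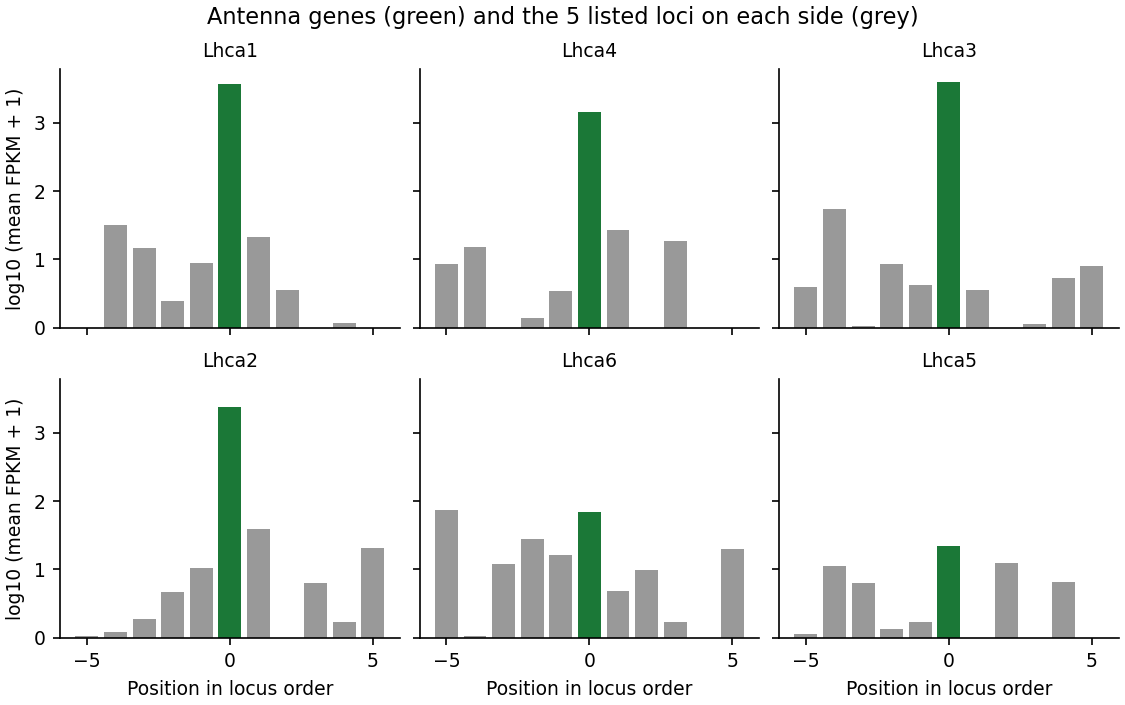
Level as log10 of (mean FPKM + 1) (vertical axis) of each antenna gene (green) and of the 5 listed loci on each side in locus order (grey; horizontal axis, position relative to the gene). Lhca1 to Lhca4 tower over neighbours that stay under 54 FPKM, whereas around Lhca6 1 neighbour reached 73.4 FPKM.

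The loci most like each antenna gene were found by the Euclidean distance of log2(FPKM + 1) over the 2 libraries, which compares level and little else. The nearest to Lhca3 was LOC_Os07g37550, a photosystem II antenna locus at 4282 FPKM, at a distance of 0.15. The nearest to Lhca4 was LOC_Os04g33830, of the photosystem I core list, at a distance of 0.072. Lhca2 was nearest to LOC_Os11g07020 at 2423 FPKM, and Lhca1 to LOC_Osxxg00163 at 3332 FPKM, with distances of 0.053 and 0.22. At the lower levels, where loci are many, Lhca5 was nearest to LOC_Os03g12064 and Lhca6 to LOC_Os02g51410, at 0.011 and 0.016.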

How the data were processed

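The values deposited by the authors are FPKM, per the file headers, with 1 value for each locus in each library. The submitters' processing notes name Cufflinks, without a version. Aligner, genome build, annotation and strand setting are not given in the sources used. Libraries were not scaled to a common total and summed to 670155 FPKM (library 1) and 651935 FPKM (library 2). The number of fragments is unknown. Depth was estimated from 940 loci with means between 0.001 and 0.5 FPKM and a log2 ratio under 0.5 in size, without pseudocount. Their commonest ratio gave library 2 a depth 1.08 times that of library 1. This assumes equal fragment lengths and, at the commonest ratio, equal numbers of fragments, and the limit on the ratio bounds the estimate.

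From these values, means, SDs, shares, ranks and log2 ratios with a pseudocount of 1 were computed with Python 3.11.15, numpy 2.4.6, pandas 2.3.3 and scipy 1.17.1. A 2-fold difference was called at an absolute log2 ratio of 1 among loci with means of 1 FPKM or more. The call was run on simulated libraries with 200 loci set 4-fold apart, after median-ratio scaling. Their spread was set rather than taken from these libraries, so that run does not show how often the call errs here. With 1 group no test between groups exists. The members and lists were chosen with earlier results of these data known. Genes named were the 6 members, the highest and lowest locus of each list, the adjoining loci, and the nearest locus by level. Other loci named, and the centring on loci at 500 FPKM, were chosen after their values were seen. Alternatives tried were scaling, pseudocount, filter and each library alone.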

Additional observations from a re-analysis of the deposited data

How the results depend on the processing

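The levels of the 6 genes were given by the scale of the deposited FPKM. Both libraries were then brought to the same total of 1000000, each by its own factor. The means became 5597 for Lhca1, 3630 for Lhca2, 6053 for Lhca3, 2164 for Lhca4, 31.4 for Lhca5 and 104 for Lhca6. The order could not change, since it was the same within each library. Median-ratio scaling moved no level by as much as its SD, but it shifts the libraries in opposite directions, so the means could hardly move. Each library alone gave 3478 to 3927 FPKM for Lhca1, 2359 to 2440 for Lhca2, 3799 to 4208 for Lhca3, 1382 to 1480 for Lhca4, 18.0 to 23.5 for Lhca5 and 58.9 to 79.4 for Lhca6. The antenna share of 1.76% ran from 1.70% to 1.81% with each library alone and was 1.95% without the 10 highest other loci, a smaller total by construction. The antenna to core ratio of 1.81 (1.80 to 1.82 with each library alone) was 1.58 as a ratio of means and 1.14 with Lhca5 and Lhca6 included, an alternative chosen after seeing the data. The count of 1295 loci 2-fold apart was 720 with a filter at 5 FPKM, which leaves fewer loci, 1797 with a pseudocount of 0.1, 1482 with no filter, 1295 under median-ratio scaling and 1622 with the same total. The count of 0 antenna genes 2-fold apart was the same under all 4 alternatives run. The ratios furthest from 0 under these were 0.46 for Lhca6 and -0.49 for Lhca5, well short of the call. The shifts were too small for the count to change. Of 24 recomputed ratios of single genes, 2 turned, both on centring at loci of 500 FPKM or more: Lhca2 to -0.071 and Lhca4 to -0.022. A change of pseudocount cannot turn a ratio, and median-ratio scaling raised every ratio slightly, so many of the 24 could not turn. No paired comparison between groups was possible because both libraries belong to a single group. As depth is unknown, no counting error could be given for Lhca5 and Lhca6, and n = 2 limits every SD.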

Other observations

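The fifth listed locus before Lhca6, LOC_Os09g26730, had 84.3 FPKM in library 1 against 62.6 FPKM in library 2, close to the 79.4 and 58.9 FPKM of Lhca6. Its log2 ratio was 0.42, as for Lhca6, while the 4 listed loci between them had ratios from -1.73 to 0.21. This locus was singled out after its values were seen, and no annotation was used for it.

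The precision to which values were written differed among the antenna genes. Lhca4 was listed with 10 significant digits in both libraries and Lhca5 with 7 in library 1 and 8 in library 2, while the other 4 genes had at most 6. More than 6 digits were found for 25.6% of the loci above 0 in library 1 and 25.8% in library 2. The files do not say whether the value of a locus sums several transcripts.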
